A study of Danio rerio with 18 samples.

Results

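Zebrafish embryos at the bud stage were compared with embryos at the sphere stage. Bud is the end of gastrulation at 10 hours post-fertilization (hpf), and sphere is a blastula at 4 hpf. The comparison was of the relative amount of each nuclear tRNA that carried its amino acid. Nuclear tRNAs were summed into 47 anticodon families, the sets of tRNAs that share an anticodon, and 46 of the 47 also had a charging measurement. All embryos were wild type, of the TLAB strain, and grew without perturbation at standard temperature. The values compared came from 10 of the 18 libraries of the series, of which 2 bud and 2 sphere libraries measured tRNA abundance and 3 bud and 3 sphere libraries measured charging. The other libraries measured abundance at 4 more stages and entered the test of abundance through its shared spread and scaling. Each library came from a pool of whole embryos, and the study collected replicate pools for abundance on different days. In such bulk samples a change in the cells present and a change in the RNA of each cell cannot be told apart.

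A tRNA reads codons with its anticodon and delivers the matching amino acid to the ribosome. An aminoacyl-tRNA synthetase joins the amino acid to the 3′ CCA end, and the tRNA is then called charged. Families with different anticodons that carry the same amino acid are isoacceptors, and transcripts that share an anticodon but differ elsewhere are isodecoders. Early embryos inherit their first tRNAs from the egg and later make their own by RNA polymerase III. The question was whether the relative amounts of charged tRNA differed between the stages, and whether any difference lay in abundance or in charging.

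Abundance is given as a share, the percent of all nuclear tRNA counts in a library. Shares are relative, so a share can fall because other tRNAs rose. Amounts per embryo or per cell were not compared. Charging is given as the charged fraction, the percent of a family's molecules with an intact 3′ end after chemical treatment. Charged supply is the product of the share and the mean charged fraction of the same stage, also in percent of nuclear counts. Its values by library therefore hold the spread of the shares and not that of charging. Total counts were 3417973 and 4643730 in the bud libraries, and 3061903 and 2216434 in the sphere libraries. Nuclear counts made up 3134078 and 4255829 of these at bud, and 2559460 and 1848222 at sphere. Mitochondrial tRNAs, which were left out of the shares, took 8.31% and 8.35% of counts at bud and 16.4% and 16.6% at sphere. The widest 95% Wilson interval of any family share reached 0.0366 percentage points to either side, so counting error was small beside the spread between replicates. Only 2 libraries a stage measured abundance, and an exact permutation test of 2 against 2 cannot give a p below 0.333, so the tests of abundance rest on a spread that the fit shares across families and stages.

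In abundance, 14 of the 47 families differed between bud and sphere (29.8% of those tested). Of these 9 were higher at bud (19.1%) and 5 lower (10.6%), by the DESeq2 Wald test with a Benjamini-Hochberg adjusted p of at most 0.05. The families that rose were SeC-UCA, Ser-CGA, Ser-UGA, Lys-CUU, Thr-UGU, Arg-UCG, Asn-GUU, Arg-ACG and Glu-CUC, and those that fell were Thr-CGU, Arg-CCG, Leu-CAA, Arg-UCU and Pro-CGG. An unadjusted p under 0.05 was found for 19 families. The edgeR quasi-likelihood test called 9 families (6 higher, 12.8%, and 3 lower, 6.38%), without Asn-GUU, Arg-ACG, Glu-CUC, Leu-CAA and Pro-CGG. The call count was also 9 without sphere replicate 2 and 9 without bud replicate 2. Share ranges of the stages did not overlap in 34 of the 47 families (72.3%), so the lack of overlap alone marked many more families than the test.

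**Figure D1:**
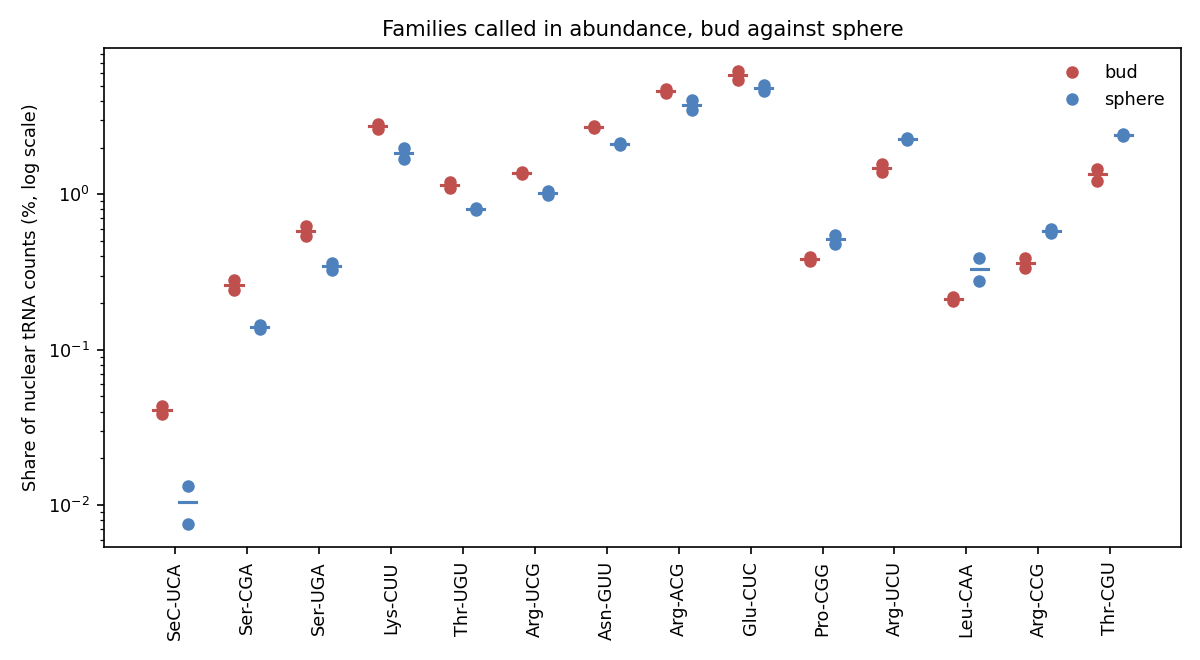
Share of nuclear tRNA counts (percent, log scale) of the 14 families called in abundance, ordered by their change, with 1 point for each of the 2 bud and 2 sphere libraries and a line at the stage mean. The bud and sphere points of each family do not overlap, and Glu-CUC, the most abundant of them, sits near 5.85% at bud and 4.86% at sphere.

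Charging was high at both stages and differed little. The charging table names families by anticodon alone, and whether mitochondrial tRNAs of the same name were kept apart is not given in the sources used here. Their share of counts was lower at bud, as given above, and its part in the charged fractions was not tested. Single charged fractions ran between 76.2% and 96.7% over the 46 families and 6 libraries. Gln-UUG was the most highly charged family in each library. Weighted by abundance, the charged fraction of the whole pool of the 46 families was 88.3% ± 2.57 at bud and 88.6% ± 1.26 at sphere (SD, n = 3 charging libraries each). The difference was -0.322 percentage points, with a two-sided exact permutation p of 0.8, where 0.1 is the smallest p that 3 against 3 allows. Its sign turned without bud charging replicate 1, with a difference of 0.646 points, and it was -1.78 points without bud charging replicate 2. Without bud charging replicate 3 it was 0.168 points, and without sphere charging replicate 2 it was 0.280 points. The uncharged remainder was 11.7% of nuclear counts at bud and 11.4% at sphere.

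The charging libraries differed from each other by whole-library offsets. Bud charging replicate 2 had the highest charged fraction of the 3 bud libraries in 46 of 46 families and the highest of all 6 libraries in 35. Its median over families was 92.2%, against 87.8% and 88.3% in the other bud libraries. The sphere medians were 88.7%, 90.9% and 90.3%. Families of 1 library therefore moved together, so that their errors are not independent of each other.

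**Figure D2:**
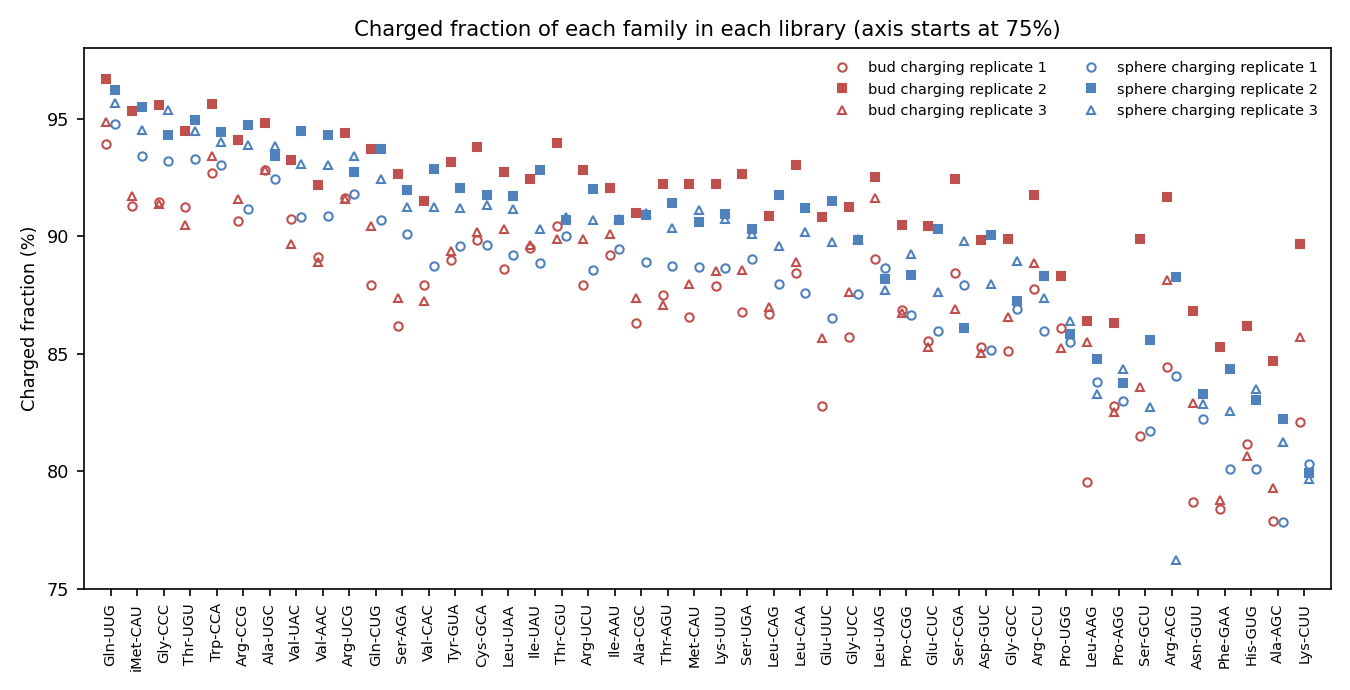
Charged fraction (percent, axis from 75%) of each of the 46 families, ordered by the sphere mean, with 1 symbol for each of the 3 bud and 3 sphere charging libraries. Bud charging replicate 2, the filled red squares, lies above the other bud libraries in 46 of 46 families, and Lys-CUU at the right end has 3 sphere symbols close together near 80.0%.

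Lys-CUU, which reads the lysine codon AAG, was the 1 family of 46 called in charging (2.17%), by limma on the log2 charged fraction. Its charged fractions were 82.1%, 89.7% and 85.7% in the bud libraries, against 80.3%, 79.9% and 79.7% in the sphere libraries. All 3 bud values lay above all 3 sphere values. The log2 ratio was 0.10 with a limma adjusted p of 0.0447, and the exact permutation p was 0.1, the smallest possible. At sphere Lys-CUU ranked 46 of 46 in mean charged fraction, and at bud it ranked 39. The call was lost on the percent scale, with a limma adjusted p of 0.0708, and on the logit scale, with 0.724. Leaving out bud charging replicate 3 or any single sphere charging library also ended it, with limma adjusted p values of 0.112 to 0.377 and log2 ratios that stayed between 0.0985 and 0.104. Without bud charging replicate 2, the library that stood apart, Lys-CUU was still called at a log2 ratio of 0.07 and an adjusted p of 0.0440.

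No other family was called in charging, and an unadjusted p under 0.05 was found for 2 families. The second was Arg-ACG, a family that reads arginine codons with a wobble adenosine that is converted to inosine. Its charged fractions were 84.4%, 91.7% and 88.1% at bud, against 84.0%, 88.3% and 76.2% at sphere, a log2 ratio of 0.09 with a limma adjusted p of 0.0730. The stages overlapped, and in sphere charging replicate 3 Arg-ACG had the lowest of all charged fractions measured. Without that library its log2 ratio was 0.03, while without sphere charging replicate 2 it was 0.14 and without bud charging replicate 1 it was 0.12. In the last 2 settings limma called Arg-ACG, with adjusted p values of 0.00803 and 0.00545. These p values draw on a spread pooled over families. Arg-ACG itself varied more, with an SD of 6.11 points over the 3 sphere libraries, against a median of 1.28 over families. Leu-UAG was the only family besides Lys-CUU whose stages did not overlap (2 of 46, 4.35%). It had 89.0%, 92.5% and 91.6% at bud and 88.7%, 88.2% and 87.7% at sphere, and was not called, with a limma adjusted p of 0.971.

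The rest of the families showed small ratios in both directions. Mean charged fractions were higher at bud in 16 families and lower in 30. Arg-CCU and Ser-GCU completed the 5 largest ratios, with mean charged fractions of 89.5% and 85.0% at bud and 87.2% and 83.3% at sphere. The 5 smallest ratios were those of Glu-UUC, Val-AAC, Ser-AGA, Thr-UGU and Ala-CGC. Glu-UUC had a mean of 86.4% at bud and 89.3% at sphere, and Ser-AGA had 88.7% at bud and 91.1% at sphere. Neither was called with the 3 bud libraries, but without bud charging replicate 2 both were, at limma adjusted p values of 0.0375 for Glu-UUC and 0.0424 for Ser-AGA. When each charging library was centred on its own median, an alternative chosen after seeing the data, limma called Lys-CUU and Arg-CCU, both higher at bud and both with an adjusted p of 0.0191.

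Multiplied together, abundance and charging gave a charged supply that differed between the stages in 12 of 46 families (26.1%). Of these 8 were higher at bud (17.4%) and 4 lower (8.70%). On the log2 scale the change in supply is the change in abundance plus the log2 ratio of charged fractions, and it was tested with a two-sided normal p from both standard errors. The log2 change in abundance came from DESeq2 with its own size factors, while shares are scaled to nuclear counts. Log2 changes therefore differ from log2 ratios of the printed shares. The median log2 change in abundance over families was 0.02 with the DESeq2 factors and -0.06 with total nuclear counts. All 12 families called in supply had also been called in abundance, in the same direction, and 0 families were called in charged supply alone. Pro-CGG was called in abundance and not in supply, with an adjusted p of 0.0565. SeC-UCA had no charging value in the deposited table and therefore no charged supply. The sign of the change was shared by abundance and supply in 45 of 46 families. The supply contains the abundance, so these counts are not independent of each other.

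The sizes show how the product was made up. The absolute log2 change in abundance had a median of 0.22 over the 46 families and a maximum of 0.99. The absolute log2 ratio of charged fractions had a median of 0.01 and a maximum of 0.10. Charging was the larger of the pair in 2 families. Across families, abundance changes and charging ratios had a Pearson's r of 0.20 and a Spearman's rho of 0.03, given as a description because families share their libraries.

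**Figure D3:**
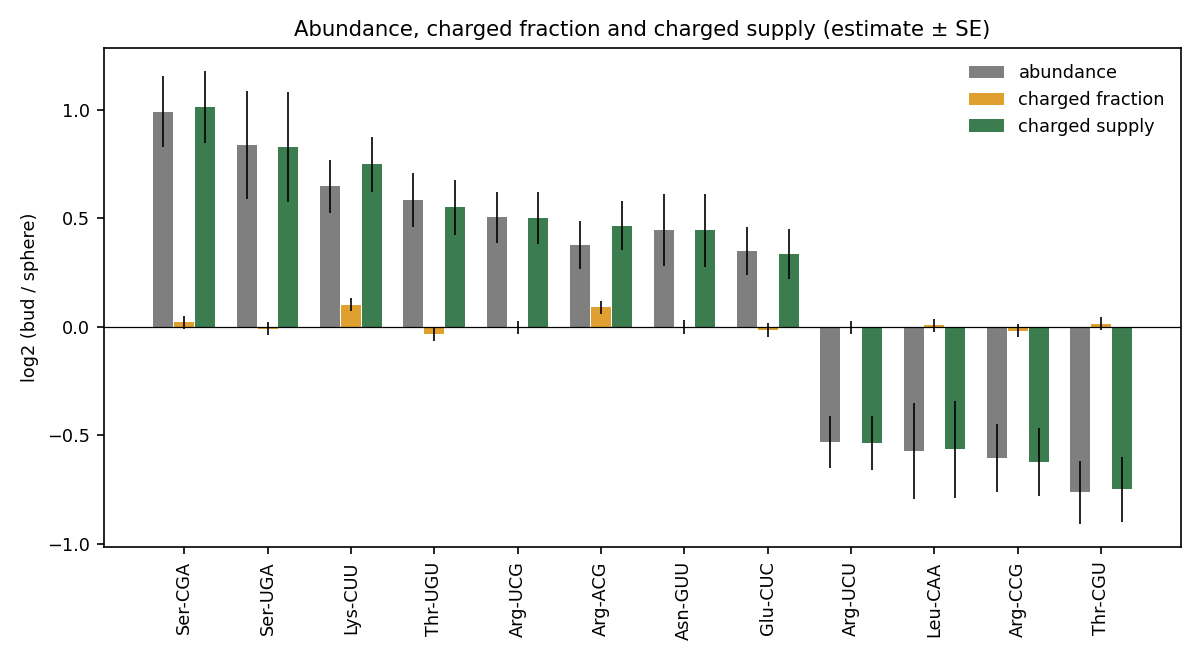
Log2 of bud over sphere for abundance, charged fraction and charged supply in the 12 families called in charged supply, with bars for the estimate and lines for its standard error. The abundance and supply bars nearly coincide except for Lys-CUU and Arg-ACG, where the charged fraction adds 0.10 and 0.09.

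In serine 2 of the 4 families rose in charged supply, and Ser-CGA had the largest log2 rise of the 46 families. Ser-CGA, which reads the UCG codon, had shares of 0.282% and 0.242% at bud, against 0.135% and 0.144% at sphere. Its charged fractions were 88.4%, 92.4% and 86.9% at bud and 87.9%, 86.1% and 89.8% at sphere. Shares were higher in both bud libraries, while charged fractions overlapped. Its charged supply was 0.252% and 0.216% of nuclear counts at bud, against 0.119% and 0.126% at sphere, a log2 change of 1.01 ± 0.17 (SE, adjusted p of 5.64e-08 from the combined DESeq2 and limma estimates). Ser-UGA, which reads UCA, had a charged supply of 0.560% and 0.479% at bud, against 0.293% and 0.325% at sphere, with a log2 change of 0.83 ± 0.25 and an adjusted p of 0.00529 from the same estimates. Its calls in abundance and in charged supply were lost without bud replicate 1, sphere replicate 1 or sphere replicate 2. With 1 library left out, its log2 change stayed between 0.73 and 0.95 in abundance and between 0.72 and 0.94 in supply.

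In both families the rise lay in a single isodecoder encoded by 3 gene copies. tRNA-Ser-CGA-14 had 6992 and 7775 counts at bud, against 830 and 597 at sphere, a log2 change of 3.04 ± 0.18 with a DESeq2 adjusted p of 6.70e-59. Of the 8 detected Ser-CGA transcripts it alone was called higher, and 3 were called lower, against 13.7% higher and 6.26% lower among all 607 detected transcripts. tRNA-Ser-UGA-19 had 13772 and 14528 counts at bud, against 2021 and 1478 at sphere, a log2 change of 2.68 ± 0.18 with a DESeq2 adjusted p of 1.76e-46. It was the only one of 9 detected Ser-UGA transcripts that was called. Isodecoders that are alike can exchange reads, so single transcripts are less certain than their families. How alike these transcripts are was not examined here. For tRNA-Ser-UGA-19 the study also reported a rise at the onset of gastrulation by northern blot.

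These minor serine families took a larger part of the serine supply at bud. Within the charged supply of serine, Ser-UGA made up 13.7% and 13.0% at bud, against 7.16% and 8.09% at sphere. Ser-CGA made up 6.15% and 5.85% at bud, against 2.90% and 3.14% at sphere. Ser-AGA, the main serine family, made up 50.7% and 54.0% at bud, against 60.0% and 63.0% at sphere. Its own supply had a log2 change of -0.21 ± 0.14 and was not called. The charged supply of serine as a whole was 4.10% and 3.69% of nuclear counts at bud, against 4.10% and 4.02% at sphere, a log2 change of -0.05 ± 0.15 that was not called.

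In threonine 1 family rose and 1 fell. Thr-CGU, which reads the ACG codon, had shares of 1.22% and 1.46% at bud, against 2.37% and 2.46% at sphere. Its charged fractions were 90.4%, 94.0% and 89.9% at bud and 90.0%, 90.7% and 90.8% at sphere. Abundance was lower in both bud libraries and charging overlapped. Its charged supply was 1.12% and 1.34% at bud, against 2.14% and 2.23% at sphere, a log2 change of -0.75 ± 0.15 with an adjusted p of 8.41e-06 from the combined DESeq2 and limma estimates. Thr-UGU, which reads ACA, had shares of 1.19% and 1.09% at bud, against 0.795% and 0.817% at sphere. Its charged fractions were 91.2%, 94.5% and 90.5% at bud and 93.3%, 95.0% and 94.5% at sphere, among the 5 smallest ratios, so that charging took 0.03 off an abundance change of 0.58. The charged supply of Thr-UGU changed by 0.55 ± 0.13 on the log2 scale.

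Within the threonine supply, Thr-CGU made up 25.6% and 28.6% at bud, against 39.8% and 40.0% at sphere. Thr-UGU made up 25.1% and 21.5% at bud, against 13.9% and 13.9% at sphere. Thr-AGU, the remaining threonine family, changed less in its part, with 49.3% and 49.9% at bud and 46.4% and 46.1% at sphere. The Thr-UGU entry that rose most was tRNA-Thr-UGU-8, with 6 gene copies. It had 21890 and 28187 counts at bud, against 5501 and 3495 at sphere, a log2 change of 2.14 ± 0.18. Of the 8 detected Thr-UGU transcripts 3 were called higher and 0 lower, against 13.7% higher and 6.26% lower among all 607 detected transcripts. For Thr-CGU the entry that fell most was an unresolved group of 5 transcripts, tRNA-Thr-CGU-4 and others, with shares of 0.477% and 0.591% at bud, against 1.19% and 1.28% at sphere. The single Thr-CGU transcripts together also fell, with 0.748% and 0.874% at bud and 1.18% and 1.18% at sphere. Of the 6 detected Thr-CGU transcripts, however, 0 were called in either direction.

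Arginine had 4 of its 5 families called in charged supply, 2 in each direction, against 26.1% of all 46 families. Arg-ACG had shares of 4.50% and 4.78% at bud, against 4.07% and 3.50% at sphere. Its charged supply was 3.96% and 4.21% at bud, against 3.37% and 2.90% at sphere. With charging included, its log2 change was 0.47 ± 0.11, against 0.38 ± 0.11 for abundance alone, and the supply had an adjusted p of 0.000263 from the combined DESeq2 and limma estimates. Its abundance call was lost without bud replicate 2, with a log2 change of 0.33 and a DESeq2 adjusted p of 0.0942. Arg-UCG, which reads CGA, had a charged supply of 1.28% and 1.24% at bud, against 0.975% and 0.913% at sphere, a log2 change of 0.50 ± 0.12. Arg-UCU, which reads AGA, had 1.42% and 1.26% at bud, against 2.03% and 2.08% at sphere, a log2 change of -0.53 ± 0.12. Arg-CCG, which reads CGG, had 0.307% and 0.357% at bud, against 0.522% and 0.561% at sphere, a log2 change of -0.62 ± 0.16. Arg-CCU, the fifth arginine family, had a log2 change of 0.13 ± 0.17 and was not called.

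As parts of the arginine supply, Arg-ACG made up 49.9% and 50.1% at bud, against 42.1% and 38.3% at sphere, and Arg-UCU made up 17.9% and 15.0% at bud, against 25.3% and 27.5% at sphere. The bud libraries held more arginine supply on Arg-ACG and less on Arg-UCU, without overlap, though shares alone did not overlap in 34 of all 47 families (72.3%). The charged supply of arginine as a whole was 7.94% and 8.41% at bud, against 8.01% and 7.57% at sphere, and its log2 change of 0.08 ± 0.11 was not called.

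**Figure D4:**
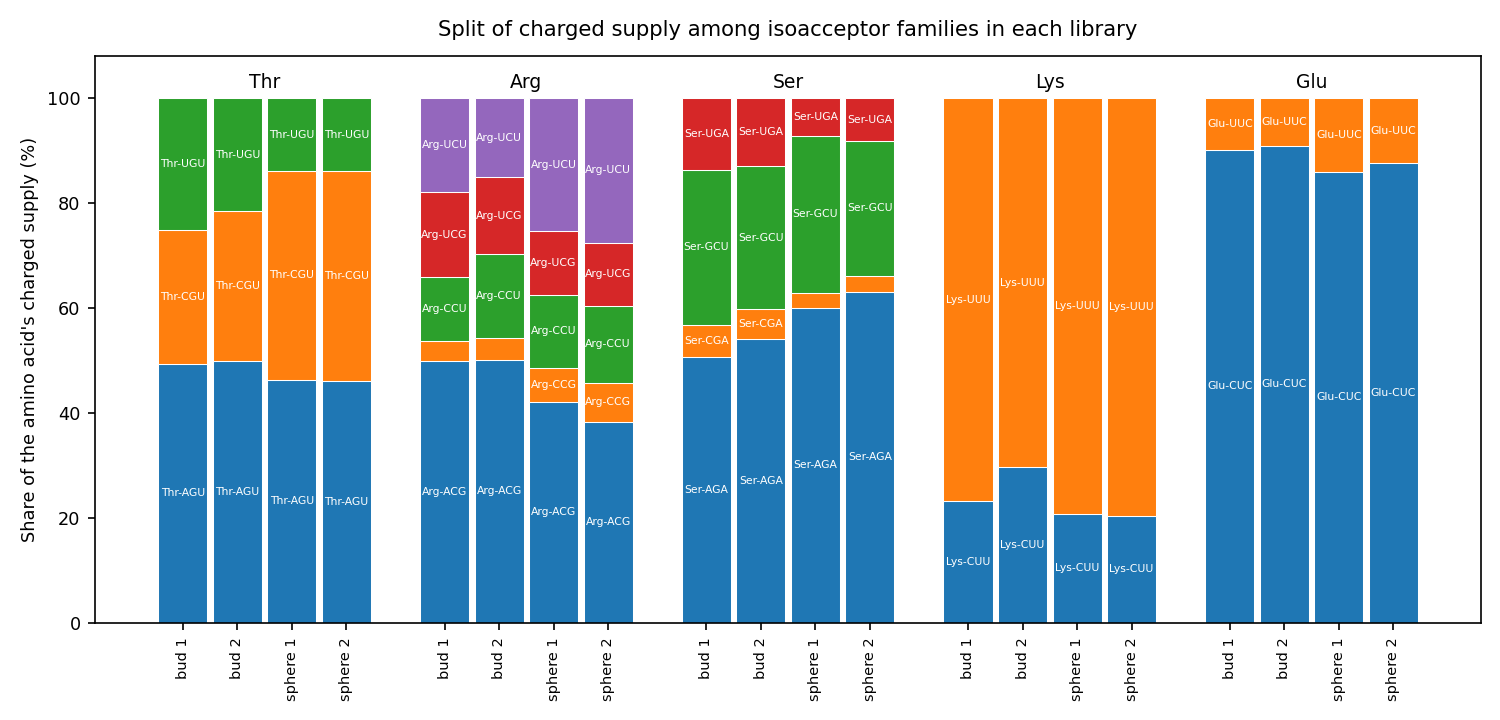
Percent of each amino acid's charged supply held by its families, stacked to 100%, in the 2 bud and 2 sphere abundance libraries for threonine, arginine, serine, lysine and glutamate, with the thin unlabelled bands being Arg-CCG and Ser-CGA. Thr-CGU and Arg-UCU take a smaller part at bud than at sphere, and Thr-UGU, Arg-ACG, Ser-UGA and Lys-CUU a larger one.

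Lysine combined a rise in abundance with the 1 called rise in charging. Lys-CUU had shares of 2.63% and 2.84% at bud, against 1.70% and 2.00% at sphere, a log2 change of 0.65 ± 0.12 with a DESeq2 adjusted p of 2.21e-06. Its charged supply was 2.26% and 2.44% at bud, against 1.36% and 1.60% at sphere. The log2 change in supply was 0.75 ± 0.13, a 1.68-fold rise on the DESeq2 scaling. Mean charged supply was 2.35% of nuclear counts at bud and 1.48% at sphere. Lys-UUU, the other lysine family and the most abundant of all families at both stages in charged supply, had 7.48% and 5.80% at bud and 5.19% and 6.24% at sphere, which overlapped. In the lysine supply Lys-CUU made up 23.2% and 29.6% at bud, against 20.8% and 20.4% at sphere. Of 38 detected Lys-CUU transcripts 14 were called higher at bud and 0 lower, against 13.7% higher and 6.26% lower among all 607 detected transcripts. The entry that moved most was tRNA-Lys-CUU-44, with 1 gene copy and 49342 and 73534 counts at bud, against 22503 and 19192 at sphere.

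Among the remaining families, Glu-CUC, which reads the glutamate codon GAG, had a charged supply of 4.75% and 5.43% at bud, against 4.46% and 4.09% at sphere, a log2 change of 0.34 ± 0.12. tRNA-Glu-CUC-1, with 130 gene copies, carried most of it, with 108342 and 164700 counts at bud, against 73137 and 43346 at sphere. Asn-GUU, the single asparagine family, had a charged supply of 2.21% and 2.28% at bud, against 1.77% and 1.72% at sphere, a log2 change of 0.45 ± 0.17. Leu-CAA, which reads UUG, had a charged supply of 0.196% and 0.185% at bud, against 0.249% and 0.347% at sphere, a log2 change of -0.56 ± 0.22. The shares of these 3 families did not overlap between the stages, as in 34 of all 47 families (72.3%), and their calls depended on single libraries. The calls of Asn-GUU in abundance and in charged supply were lost whichever of the 4 abundance libraries was left out, and those of Glu-CUC without bud replicate 2 or sphere replicate 2. Those of Leu-CAA were lost without bud replicate 1, bud replicate 2 or sphere replicate 2, and its supply call also without bud charging replicate 1, bud charging replicate 3 or sphere charging replicate 2, with adjusted p values of 0.0505 to 0.0519 from the DESeq2 and limma estimates. The DESeq2 abundance call of Pro-CGG was lost without the same 3 abundance libraries as that of Leu-CAA. Without sphere replicate 2 the Leu-CAA log2 change in abundance was -0.29, and that of Pro-CGG, whose shares were 0.373% and 0.393% at bud and 0.481% and 0.547% at sphere, was -0.22.

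Of the 5 most abundant families at bud, Tyr-GUA and Asp-GUC were, like Lys-UUU, not called. Tyr-GUA, the single tyrosine family, had a charged supply of 5.26% and 4.51% at bud, against 4.37% and 4.47% at sphere, a log2 change of 0.22 ± 0.14. Asp-GUC, the single aspartate family, had 4.02% and 3.89% at bud, against 3.53% and 3.32% at sphere, a log2 change of 0.29 ± 0.15. Both were higher in both bud libraries, by less than the fitted spread could separate.

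SeC-UCA, the tRNA that delivers selenocysteine, had the largest change in abundance of all 47 families. Its shares were 0.0433% and 0.0385% at bud, against 0.00754% and 0.0134% at sphere. The 95% Wilson intervals were 0.0411% to 0.0457% and 0.0367% to 0.0404% at bud, against 0.00655% to 0.00868% and 0.0118% to 0.0151% at sphere, and cover counting error only. Both bud values lay well above both sphere values, which differed from each other by more than counting error. The log2 change was 2.05 ± 0.39 with a DESeq2 adjusted p of 2.21e-06.

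The reads of several called families lay mostly in unresolved groups, and single transcripts did not always move with the family. In Asn-GUU the groups held 2.35% and 2.43% of nuclear counts at bud, against 1.60% and 1.57% at sphere, while the single transcripts held 0.318% and 0.323% at bud, against 0.532% and 0.503% at sphere. A group of 3 transcripts, tRNA-Asn-GUU-82 and others, moved most, with 1.49% and 1.57% at bud, against 0.426% and 0.483% at sphere. Summed over single transcripts alone, Asn-GUU had a log2 change of -0.64 with a DESeq2 adjusted p of 0.00915, so the direction turned. Arg-ACG turned too, to -0.25, and Arg-CCG to 0.11, neither of them called. Arg-UCU was then at -0.10 and Leu-CAA at -0.49, also not called. In Arg-ACG the group of 2 transcripts with tRNA-Arg-ACG-1, with 117 gene copies, held 4.34% and 4.59% at bud and 3.84% and 3.30% at sphere, so that the single transcripts made up only a small part of the family.

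**Figure D5:**
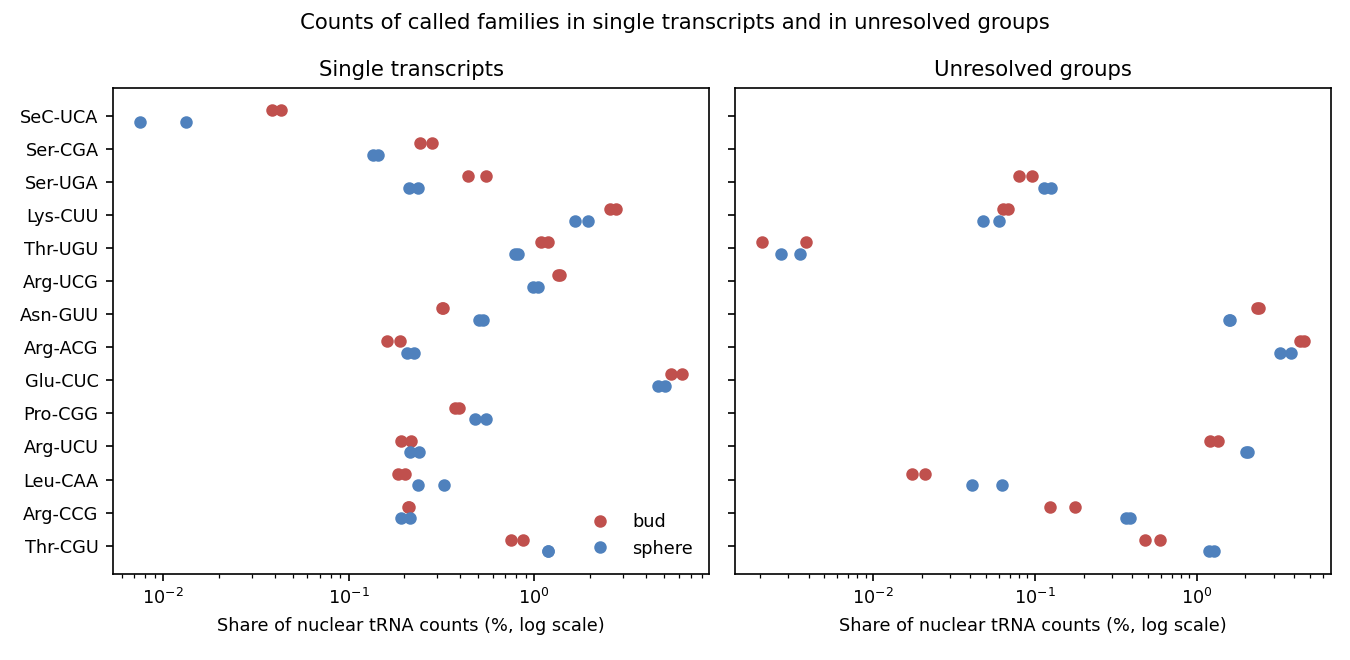
Share of nuclear counts (percent, log scale) held by single transcripts on the left and by unresolved groups on the right, for the 14 families called in abundance, with 1 point for each of the 2 bud and 2 sphere libraries. Asn-GUU is lower at bud among single transcripts and higher among groups, and families without groups have no point on the right.

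Over all 607 detected transcripts, 121 differed between bud and sphere in abundance by the DESeq2 Wald test (19.9%), with 83 higher and 38 lower. Without one of the 4 libraries the count was 62 to 72. In the 14 called families 172 transcripts were detected, of which 34 were called higher and 22 lower. Over all detected transcripts 13.7% were called higher and 6.26% lower. The 14 families were called from sums that include these transcripts, so the choice itself favoured such calls. All of these transcript calls use the DESeq2 size factors. With total nuclear counts, the scale of the shares, the median log2 change of detected transcripts was -0.43 instead of -0.04. More transcripts were then called lower than higher, as given below. Families that rose could hold transcripts that fell. In Arg-UCG, tRNA-Arg-UCG-1 had 22516 and 29497 counts at bud, against 8454 and 4501 at sphere, while tRNA-Arg-UCG-8, with 27 gene copies, had 6045 and 10854 at bud, against 13348 and 9353 at sphere, a log2 change of -0.81 ± 0.22.

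Summed by amino acid, fewer differences were called than by family. In abundance 1 of 22 amino acid classes was called by DESeq2 (4.55%), with initiator methionine counted apart, and this was selenocysteine. The edgeR test called the same number, and an unadjusted p under 0.05 was found for 5 classes by DESeq2 and for 4 by edgeR. In charged supply 0 of 21 were called (0%), with an unadjusted p under 0.05 for 4. These were asparagine, proline, leucine and threonine. Asparagine, which is the family Asn-GUU alone, had a log2 change of 0.37 ± 0.15 in the fit by amino acid and was not called there, with an adjusted p of 0.161 from the DESeq2 and limma estimates, although the same counts were called in the fit by family. Proline had a charged supply of 3.93% and 4.00% at bud, against 4.63% and 5.01% at sphere, a log2 change of -0.27 ± 0.11. Leucine had 3.17% and 3.33% at bud, against 3.86% and 4.82% at sphere, a log2 change of -0.41 ± 0.18. Threonine had 4.37% and 4.68% at bud, against 5.40% and 5.56% at sphere, a log2 change of -0.27 ± 0.13. These counts depended on the fit, since with only the 4 bud and sphere libraries DESeq2 called 9 amino acids in abundance and 7 in charged supply.

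Families were also grouped by the first base of the anticodon, the wobble position, and by the class of their synthetase. Of 16 families with a first base C, 3 were called higher in charged supply and 3 lower, with a median log2 change of -0.01. Of 14 with a first base U, 3 were called higher and 1 lower, with a median of -0.14. The 8 families with A and the 8 with G had 1 higher and 0 lower each, with medians of -0.01 and 0.07. Over all 46 families 8 were higher and 4 lower, and no test was made between the groups.

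Class I synthetases, which include those of arginine, leucine and glutamate, served 24 families, with 3 called higher and 3 lower in charged supply. Class II synthetases, which include those of serine, threonine, lysine and asparagine, served 22, with 5 higher and 1 lower. The summed supply of class I families was 43.7% and 44.6% at bud, against 45.0% and 43.7% at sphere, and the stages overlapped. The last grouping was by the number of codons of the amino acid. The 14 families of amino acids with 6 codons (leucine, serine and arginine) had 7 calls, 4 higher and 3 lower. Of these 7 calls, 4 were those of arginine described above. Over all 46 families 8 were called higher (17.4%) and 4 lower (8.70%). The 12 families of amino acids with 2 codons had 3 higher and 0 lower. Together those 12 held 39.0% and 37.2% of nuclear counts as charged supply at bud, against 34.8% and 35.0% at sphere. The 15 families of amino acids with 4 codons had 1 higher and 1 lower, and held 23.8% and 25.0% at bud, against 27.1% and 27.3% at sphere.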

How the data were processed

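tRNA was measured in pooled whole embryos by mim-tRNAseq. For abundance, the authors deacylated RNA, isolated tRNA by size, made cDNA with the TGIRT reverse transcriptase, trimmed reads with cutadapt 3.5 and aligned them with GSNAP to clustered tRNA references of GRCz11 (GtRNAdb, with mitochondrial tRNAs added). The deposited counts are whole numbers of uniquely mapped reads per transcript or unresolved group, not normalized. Groups are reads that could not be assigned to 1 transcript, and single transcripts held 72.9% to 74.3% of nuclear counts in the bud and sphere libraries. For charging, the authors used oxidation and removal of the exposed end base, and deposited for each library the charged fraction of every anticodon family, without read counts, so its depth is unknown. Gene copy numbers are those of the deposited table. No tRNA sequence or coordinate was used here.

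Counts of 2578 nuclear entries were summed by anticodon and by amino acid. The 22 mitochondrial entries were left out of shares and tests. Abundance was tested with DESeq2 1.42.0 in R 4.3.3, with all 12 libraries of 6 stages in 1 fit and stage as the only term, and edgeR 4.0.16 was the alternative. Transcripts were called detected from 0.005% of nuclear counts in at least 1 library. Of these 607, 6 had an adjusted p that DESeq2 withheld and were not counted as called. Charged fractions were tested with limma 3.58.1 on the log2 scale, 3 against 3. Its estimated spread was the same for each family (SE of 0.03), so its p values rest on the pooled spread and treat families as independent. Charged supply added both log2 changes, with standard errors in quadrature. Calls used Benjamini-Hochberg adjusted p values with a threshold of 0.05. DESeq2 adjusted over the features that its own filter kept. For transcripts this was done on 2505 single transcripts, before the 607 detected ones were taken. The other tests were adjusted over all features entered. Exact permutation p values and those named unadjusted were not adjusted. For single values two-sided exact permutation tests were used.

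Replicates of a stage differed by far more than sampling noise, with a chi-square per degree of freedom of 709 at bud and 278 at sphere over families. 0 per-sample columns were left unmapped. Shares have Wilson intervals at 95% confidence, which cover counting error only. Named families were those called in any of the 3 measures, the 5 largest and 5 smallest ratios of charged fractions, the 5 most abundant at bud, SeC-UCA, and for each called family the entry whose share moved most in its direction. Charged supply by amino acid and the centring of charging libraries were added after seeing the data. The members and the lists were chosen with earlier results of these data known. Alternatives covered normalization, filters, the libraries in the fit, the rows summed, the scale of charging, the replicate number as a term and each library left out.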

Additional observations from a re-analysis of the deposited data

How the results depend on the processing

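Depth did not limit family shares, but with 2 abundance libraries and 3 charging libraries a stage several calls depended on the fit. Of the 14 families called in abundance, edgeR called 9, and the range with 1 library left out was 9 to 14. The split of calls moved with the scaling, from 9 higher and 5 lower to 8 higher and 8 lower with total nuclear counts as size factors, 12 higher and 3 lower with mitochondrial counts included, and 9 higher and 7 lower with TMM factors. Charged supply called 12 families, 14 with total nuclear counts (6 higher, 8 lower), and 8 to 14 with 1 library left out. Amino acids called in abundance numbered 1, against 2 with total nuclear counts, 5 with mitochondrial counts included, 9 with only the 4 libraries compared, 4 with single transcripts alone and 1 to 3 with 1 library left out. Amino acids called in charged supply numbered 0, against 1 with mitochondrial counts included, 7 with only the 4 libraries, 3 with single transcripts alone and 0 to 1 with 1 library left out. Families called in charging numbered 1, against 0 on the logit scale, 0 in percent, 2 with centred libraries and 0 to 3 with 1 library left out. The pool difference in charged fraction ran from -1.78 to 0.646 points. Of the transcripts 121 were called, against 61 at a detection threshold of 0.05%, 62 to 72 with 1 library left out, 177 with total nuclear counts (51 higher, 126 lower), which moved the median log2 change to -0.43, and 96 with TMM factors (79 higher, 17 lower). The detection threshold of 0.05% took a smaller set of transcripts after adjustment, so the count of 61 could only be lower. It does not bear on the fit, and the number of transcripts that passed this threshold is not given here. The cause of the other differences was not tested.

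The main tests did not pair libraries by replicate number. Deviations of same-numbered libraries correlated across families at -0.08 for abundance and at -0.13, 0.34 and -0.36 for charging. Such a correlation does not register an offset of a whole library. The median charged fraction over families was lowest in replicate 1 and highest in replicate 2 at both stages. Whether replicate numbers pair the charging libraries was not tested. With the replicate block, DESeq2 called 15 families and 3 amino acids in abundance and 144 transcripts, limma called 2 families in charging, and charged supply called 14 families and 2 amino acids with the block on abundance and 12 families with the block on charging.

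Among called families the direction in abundance and in supply turned only in the sum over single transcripts alone. There the log2 change in abundance was -0.25 for Arg-ACG, 0.11 for Arg-CCG and -0.64 for Asn-GUU, and in charged supply -0.16, 0.090 and -0.64. Of families not called, Ser-GCU was at -0.013 with edgeR, -0.013 with TMM factors and -0.060 with total nuclear counts, and with the last at -0.033 in charged supply, where Val-AAC was at -0.019. The log2 ratio of charged fractions turned in families not called in charging, on the logit scale to 0.0045 for Asn-GUU and 0.00035 for Pro-CGG, and with centred libraries to 0.0067 for Arg-UCG, 0.0051 for Arg-UCU, 0.0076 for Asn-GUU, 0.0076 for Pro-CGG, 0.00020 for Ser-UGA and 0.0013 for Tyr-GUA. With 1 library left out, other values near 0 took both signs. In abundance the log2 change ran over -0.12 to 0.0039 for Ala-CGC, -0.16 to 0.32 for Arg-CCU and -0.11 to 0.15 for Ser-GCU. In charged supply it ran over -0.13 to 0.35 for Arg-CCU, -0.29 to 0.043 for Leu-UAG and -0.086 to 0.18 for Ser-GCU. The log2 ratio of charged fractions ran over -0.016 to 0.0053 for Arg-UCG, -0.024 to 0.015 for Arg-UCU, -0.036 to 0.035 for Asn-GUU, -0.042 to 0.0025 for Asp-GUC, -0.042 to 0.0045 for Glu-CUC, -0.016 to 0.021 for Leu-CAA, -0.031 to 0.0040 for Lys-UUU, -0.021 to 0.0094 for Pro-CGG, -0.0042 to 0.040 for Ser-CGA, -0.014 to 0.057 for Ser-GCU, -0.035 to 0.012 for Ser-UGA, -0.0056 to 0.026 for Thr-CGU and -0.028 to 0.0045 for Tyr-GUA. The planned fit with mitochondrial families could not be run, because the charging table holds none under a name of their own.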

Other observations

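The shield stage (6 hpf) lies between sphere and bud and had 2 abundance libraries of its own, whose values were not compared above, although they entered the fit of abundance. Of the 14 families called between bud and sphere, 8 had both shield shares between those of sphere and bud. The families were chosen for a gap between these stages, which makes a value in between more likely. No such count was made over all 47 families. Ser-CGA stood at 0.158% and 0.167% at shield, with 0.126% to 0.149% over the 8 libraries from egg to sphere and 0.242% and 0.282% at bud. Thr-CGU stood at 1.52% and 1.79% at shield, with 1.96% to 2.46% in the earlier libraries and 1.22% and 1.46% at bud. SeC-UCA stood at 0.0147% and 0.0154% at shield, with 0.00754% to 0.0134% earlier and 0.0385% and 0.0433% at bud. In these 3 families the shield values were past all earlier libraries and short of bud. Thr-UGU differed, with 0.682% and 0.758% at shield, inside or below the earlier range of 0.693% to 0.817%, and 1.09% and 1.19% at bud. This is the sum over the family. For its transcript tRNA-Thr-UGU-8 the study reported a rise already from shield, by sequencing and by northern blot.

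For 11 of the 14 families both bud libraries lay outside the range of the 8 libraries from egg to sphere. The exceptions were Arg-UCU, Asn-GUU and Leu-CAA, whose earlier shares ran from 1.22% to 2.30%, from 1.66% to 2.67% and from 0.170% to 0.387%. The 14 families were chosen for a difference from sphere, whose libraries are part of that range, so the choice itself raised the count. The trait was not particular to called families. Among families not called, Val-UAC, Val-CAC, Asp-GUC, Ala-UGC, Gln-UUG, Pro-AGG and Pro-UGG also had both bud libraries outside the range, while Ala-AGC, for example, did not. The count was not made over all 47 families. No charging was measured at shield or before sphere in the libraries analysed here.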
